A study of Mus musculus with 2 samples.

Results

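Laminin chains and integrin subunits were compared between 1 wild-type and 1 mutant mouse kidney sample from postnatal day 3, a stage at which the mouse kidney still forms nephrons. The members were the probe sets whose single gene symbol in the authors' table began with Lama, Lamb or Lamc and a digit, or with Itga or Itgb. The account covers 83 such probe sets of 39 genes, out of 20659 genes counted on the array: 10 laminin chain genes, 16 integrin alpha subunit genes, 7 integrin beta subunit genes and 6 genes that carry an Itgb symbol without being one of the numbered subunits. The mutant was labelled B6C3Fe a/a-bpck, in a series on polycystic kidney disease, in which tubules widen into fluid-filled cysts. The labels of the wild-type sample name no strain, and those of neither sample give the mutated gene, the sex or the number of animals. Both were hybridised to Affymetrix Mouse 430 2.0 arrays, 1 per sample, which measure a transcript with sets of short probes.

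Laminins are secreted trimers of an alpha, a beta and a gamma chain, and they form the sheet on which a basement membrane is built. Integrins are receptors made of an alpha and a beta subunit that span the cell membrane and tie laminins, collagens and other matrix proteins to the cytoskeleton. In the kidney these proteins act where the ureteric bud branches, where tubule cells rest on their basement membrane and where podocytes cover the glomerular filter, whose laminin chains are exchanged as the glomerulus matures.

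None of these laminin and integrin subunit genes above the intensity filter stood 1.5-fold apart between the arrays. Itgb6, 1.38-fold higher in the mutant sample, and Itgae, 1.31-fold lower, had the largest differences in either direction. Itgae was dim, at 41.0 and 31.4, and its other probe set, below the filter, differed the other way. Lama1 was 1.28-fold lower, Itga8 1.23-fold lower on its brighter probe set and Itgav 1.2-fold lower. The chains Lama5, Lamb1 and Lamc1 were each higher, by 1.13-fold, 1.10-fold and 1.10-fold on their brightest probe sets, although the other probe set of Lamc1 above the filter was lower by as much. With 1 array per group there was no replicate and no test, so each difference describes these arrays alone, and in whole kidney RNA fewer cells of a type and less RNA per cell cannot be told apart.

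Values are dChip intensities, the authors' linear summary per probe set, and a gene is given by the probe set with the highest log2 intensity averaged over the arrays. A gene passed the filter if at least 1 array read 16.53 or more, which is the overall median. Of the 33 laminin and integrin subunit genes 24 passed, and of the 6 others 3 passed, and all 27 of these reached the filter in both arrays. Of the 24, 10 were higher and 14 lower in the mutant array, with a median log2 difference of -0.06, beside -0.01 over all 13145 genes that passed. Setting the array medians equal shifted the log2 difference of each of these genes up by 0.073, which gave 13 higher and 11 lower and a median of 0.02, so no direction is given for the group as a whole. Among all genes 48.0% were higher by any amount as deposited and 64.5% with array medians set equal. None of the 24 reached 2-fold, a distance reached by 1.04% of all genes (0.525% higher and 0.517% lower), and none reached 1.5-fold, a distance reached by 4.58% (2.01% higher and 2.57% lower). At 1.2-fold, 7 of the 24 stood apart, 1 higher and 6 lower, beside 21.1% of all genes, of which 9.87% were higher and 11.2% lower. With array medians set equal 4 of the 24 stood that far apart, 2 higher (Itgb6 and Itga1) and 2 lower (Lama1 and Itgae), beside 22.8% of all genes. Bright genes differ less on this array, and among the 7785 genes with at least 1 array at 83.51 or more, the 75th percentile, 11.8% were at least 1.2-fold apart. Of the 15 laminin and integrin genes that bright, 4 were so (Lama1, Itga8, Itgav and Itgb6), of which Itgb6 was that bright in the mutant array alone. With array medians set equal 3 of the 15 were so, 2 higher and 1 lower, beside 1098 of the 7785. As deposited, Itgav, at 1.2-fold, stood just inside that distance and Itga1, at 1.18-fold, just outside it.

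**Figure D1:**
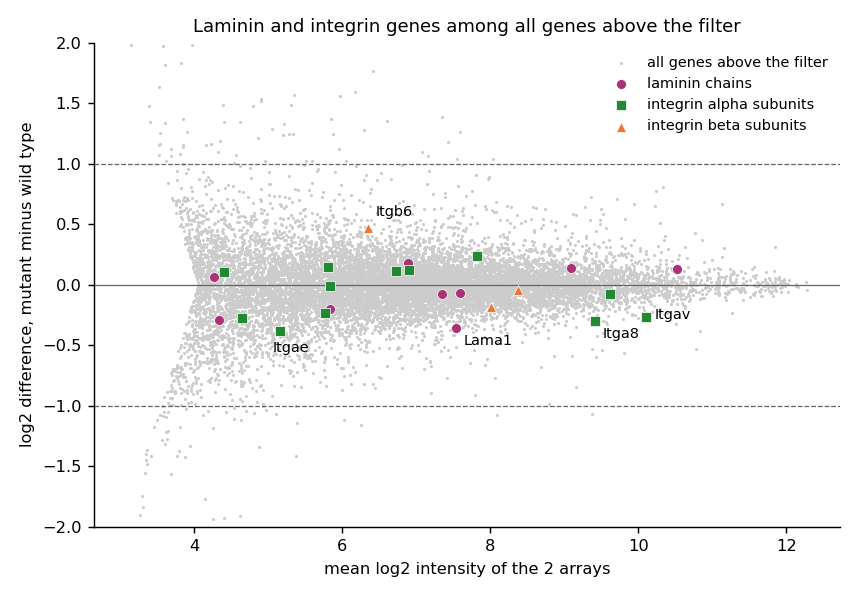
Log2 difference (mutant minus wild type) against mean log2 intensity for the 13145 genes that passed the filter (grey) with the 9 laminin chains, 12 integrin alpha and 3 integrin beta subunits that passed (coloured), 1 array per group. Dashed lines mark 2-fold, 24 genes lie outside the plotted range, and all coloured points lie between -0.39 and 0.47.

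Several facts of the whole arrays bear on these values. Summed intensity was 5173132 in wild type and 5175900 in mutant, and the 75th percentiles were 83.98 and 83.02, so the arrays were alike in their upper range while their medians were 16.97 and 16.13. Among sex-linked genes, Xist read 4.67 in the wild-type and 1113 in the mutant array. Y-linked genes read lower for 4 of 4, at 80.1 to 394 in wild type and 16.25 to 84.2 in mutant. The 7 adrenal markers summed to 594 in wild type and 43.6 in mutant. Of these 6 were lower, all of which passed the filter through the wild-type array alone, and the dim Cyp11a1 read 5.69 and 9.70. Kidney markers were measured in both arrays. Those of the proximal tubule were higher for 4 of 5 genes, beside 48.0% of all genes, and summed to 3632 and 4382. The part of sex or adrenal tissue in any difference below was not tested.

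Among the laminin alpha chains, Lama1, the chain of early tubular basement membranes, and Lama5, the main alpha chain of the mature glomerular and tubular basement membrane, went opposite ways. Lama1 had 1 probe set, with an intensity of 210.0 in the wild-type and 164 in the mutant sample and a log2 difference of -0.36. A difference at least that far from 0 in either direction was seen in 12.6% of all genes that passed the filter and in 5.43% of the bright ones. Lama5 read 112 and 127 on its brighter probe set and 70.2 and 81.3 on the other, log2 differences of 0.18 and 0.21. The remaining probe set of Lama5, below the filter, read 7.03 and 13.2. Differences at least as large as 0.18 in size were common, being found in 34.1% of all genes. The log2 difference of Lama5 stood 0.54 above that of Lama1, a gap that setting the array medians equal leaves as it is and that was 0.54 with quantile and with loess scaling.

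The remaining alpha chains lay close to equal in the arrays. Lama2, a chain of muscle and mesangial matrix, read 167 and 159, and Lama4, a chain of endothelial basement membranes, read 197 and 188. Their log2 differences were -0.08 and -0.07, and with array medians set equal they were 0.00 for both. Lama3, the alpha chain of the epithelial laminin that anchors hemidesmosomes, was dim, with 18.7 and 19.6 on the probe set above the filter and exactly 1 in both arrays on the other.

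The beta chains also differed in direction. Lamb1, the widely made beta chain, was higher on all 3 of its probe sets above the filter, which read 1412 and 1547, 877 and 1017, and 60.2 and 67.4. Their log2 differences ran from 0.13 to 0.21. Lamb2, the beta chain of the mature glomerular basement membrane, whose human counterpart is mutated in Pierson syndrome, read 61.0 in the wild-type and 53.0 in the mutant sample, a log2 difference of -0.20. The difference of Lamb1 stood 0.34 above that of Lamb2, and 0.32 and 0.30 above it with quantile and loess scaling. Lamb3, which joins Lama3 in that epithelial laminin, did not pass the filter and read 13.5 and 15.7.

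Lamc1, the gamma chain of most laminins, read 523 and 574 on its bright probe set, a log2 difference of 0.13. Its dimmer probe set, at 16.9 and 15.4, differed the other way by -0.13, so the mean of both was 0.00. Lamc3, a gamma chain of few tissues, was lower, at 22.3 and 18.2, a log2 difference of -0.29.

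**Figure D2:**
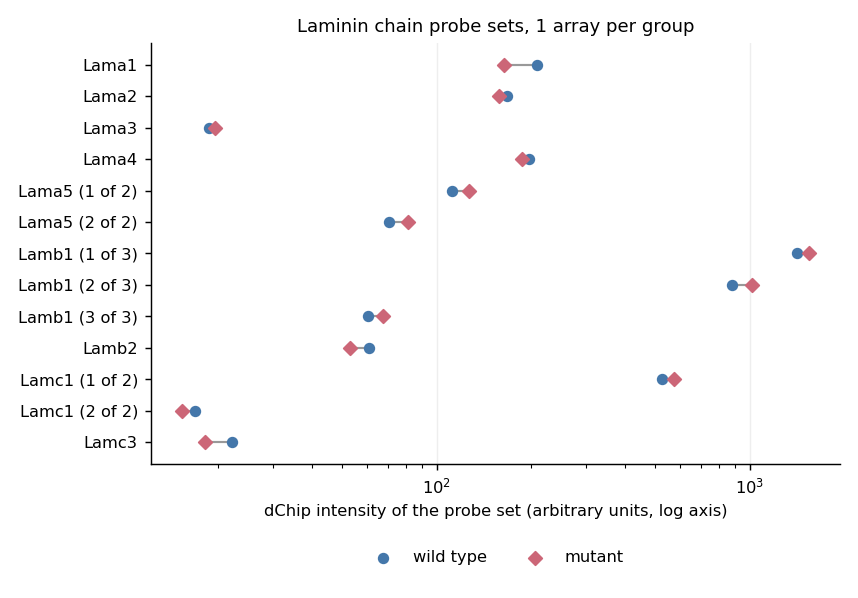
Intensity (log axis, arbitrary units) of the 13 laminin chain probe sets above the filter in the wild-type array (circles) and the mutant array (diamonds), joined by a line for each probe set. The mutant value lies to the right for Lama5 and Lamb1 and to the left for Lama1, Lamb2 and Lamc3.

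As trimers, the chains encoded by Lama5, Lamb1 and Lamc1 were all higher on their brightest probe sets under every scaling tried. The trimer of Lama1, Lamb1 and Lamc1 held chains of both directions, as did that of Lama5, Lamb2 and Lamc1. Podocyte markers were lower in the mutant array for 7 of 7 genes, summing to 1834 in wild type and 1329 in mutant. Endothelial markers were lower for 6 of 7, summing to 1648 and 1474. As deposited, 6828 of all 13145 genes were lower. The part of podocytes and endothelium in the values of Lamb2, Lama4 and Lama5 was not tested.

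Itgb6, the integrin gene with the largest difference above the filter, encodes an epithelial beta subunit that pairs with the product of Itgav and releases latent TGF-beta. It read 69.1 in the wild-type and 95.5 in the mutant sample, a log2 difference of 0.47, and 7.54% of all genes were at least as far from 0. Its other probe set, below the filter, also read higher in the mutant array, at 11.5 and 13.6. Itgav, a subunit that pairs with several beta subunits, was lower in the mutant array on its bright probe set, at 1208 and 1005, a log2 difference of -0.27. Its 4 other probe sets stayed below the filter, with values from 1.03 to 13.3, and differed in both directions. Itgb5, another partner of Itgav and a vitronectin receptor subunit, was lower on all 4 of its probe sets, the brightest reading 275 and 243. The 4 log2 differences of Itgb5 ran from -0.26 to -0.16, and with array medians set equal that of the brightest was -0.11. The difference of Itgb6 stood 0.73 above that of Itgav and 0.65 above that of Itgb5.

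The start regions of some genes from these opposite groups are shown. Lama5 and Lamb1 were higher on every probe set above the filter, and Itgb6 was the farthest higher. Itgb5 was lower on all 4 of its probe sets and Itgav on its only 1 above the filter. Itga1 and Itga3 were also higher, and Itgb1 lower, on each of theirs above the filter, and are not shown. Each sequence runs 5′ to 3′ on the gene's strand, from 250 bases before to 50 bases after a RefSeq start in build GRCm38.p6, and capitals mark GC boxes, the letters GGGCGG on either strand. Lama5 lies at chr2:180225810-180226109 on the minus strand, Lamb1 at chr12:31265043-31265342 on the plus strand, Itgav at chr2:83724147-83724446 on the plus strand and Itgb5 at chr16:33829415-33829714 on the plus strand. Itgb6 has 2 starts in the table, both on the minus strand, at chr2:60673644-60673943 and chr2:60722554-60722853.
Lama5: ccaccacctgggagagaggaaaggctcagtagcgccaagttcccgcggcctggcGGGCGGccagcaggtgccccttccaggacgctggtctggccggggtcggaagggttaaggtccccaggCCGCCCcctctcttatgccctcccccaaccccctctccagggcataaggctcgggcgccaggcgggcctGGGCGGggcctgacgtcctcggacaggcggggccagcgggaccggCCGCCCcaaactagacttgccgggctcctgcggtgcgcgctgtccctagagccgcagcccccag
Lamb1: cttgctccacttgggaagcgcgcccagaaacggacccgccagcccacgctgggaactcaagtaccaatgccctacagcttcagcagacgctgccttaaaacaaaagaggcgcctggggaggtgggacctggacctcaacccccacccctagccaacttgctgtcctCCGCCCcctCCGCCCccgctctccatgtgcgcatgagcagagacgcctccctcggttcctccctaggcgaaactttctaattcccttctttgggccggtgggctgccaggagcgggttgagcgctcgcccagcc
Itgav: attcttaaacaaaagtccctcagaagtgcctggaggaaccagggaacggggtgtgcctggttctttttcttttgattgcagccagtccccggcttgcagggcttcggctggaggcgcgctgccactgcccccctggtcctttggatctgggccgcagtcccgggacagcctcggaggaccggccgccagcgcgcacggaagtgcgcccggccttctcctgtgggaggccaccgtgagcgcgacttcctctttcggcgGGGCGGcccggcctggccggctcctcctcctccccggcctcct
Itgb5: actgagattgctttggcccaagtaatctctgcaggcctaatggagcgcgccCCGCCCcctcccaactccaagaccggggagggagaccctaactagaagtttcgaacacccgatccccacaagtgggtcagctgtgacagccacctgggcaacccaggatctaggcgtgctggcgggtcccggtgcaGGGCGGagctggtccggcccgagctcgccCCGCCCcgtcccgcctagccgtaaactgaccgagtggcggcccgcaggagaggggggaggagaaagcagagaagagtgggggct
Itgb6, first listed: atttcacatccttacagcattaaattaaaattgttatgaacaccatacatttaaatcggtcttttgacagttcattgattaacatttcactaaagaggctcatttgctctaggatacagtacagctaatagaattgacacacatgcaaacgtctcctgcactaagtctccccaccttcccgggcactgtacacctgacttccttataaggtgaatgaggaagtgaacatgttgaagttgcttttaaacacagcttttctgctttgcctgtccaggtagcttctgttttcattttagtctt
Itgb6, second listed: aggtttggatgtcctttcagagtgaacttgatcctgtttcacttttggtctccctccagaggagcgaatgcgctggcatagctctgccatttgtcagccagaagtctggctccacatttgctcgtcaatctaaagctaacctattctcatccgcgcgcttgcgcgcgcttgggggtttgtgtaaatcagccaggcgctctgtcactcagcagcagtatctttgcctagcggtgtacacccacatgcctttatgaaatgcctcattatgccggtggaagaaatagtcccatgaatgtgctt
GC boxes numbered 4 in Lama5, 2 in Lamb1, 1 in Itgav and 3 in Itgb5, and there was none in either window of Itgb6. Windows with at least 1 GC box made up 35.7% of the 32851 start regions in the table, and 10 of the 17 that the table holds for 15 of the 24 laminin and integrin genes above the filter. G and C made up 72.7% of the Lama5 window and 63.7%, 67.3% and 65.7% of those of Lamb1, Itgav and Itgb5, beside 38.3% and 50.3% for Itgb6 and a median of 52.7% over all windows. None of these windows held a TATA box (TATAAA on either strand), which 13.6% of all windows held, or an AP-1 site (TGANTCA on either strand), which 7.81% held. GC boxes were found both in genes that were higher and in genes that were lower, and the window of Itga1, which was higher, held none.

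Itga8 and its ligand went apart. Itga8, which pairs with Itgb1 on the mesenchyme around the ureteric bud and is needed for kidney formation in mice, read 761 in the wild-type and 616 in the mutant sample on its bright probe set, a log2 difference of -0.30. Its dimmer probe set read 37.9 and 41.6, a difference of 0.14 in the other direction. Npnt, which encodes nephronectin, the ligand of that integrin in the bud, read 1495 and 2015, and all 5 of its probe sets above the filter were higher, by log2 differences of 0.35 to 0.63. Frem2, a basement membrane protein that belongs to the complex holding nephronectin in place, was 1.57-fold higher, at 193 and 304. Frem1, of the same complex, read 272 and 223, and Fras1 read 273 and 311 on the brighter of 2 probe sets that disagreed in sign. Stromal and mesangial markers, a list that holds Itga8, were lower for 7 of 9 genes, beside 6828 of all 13145 genes. With array medians set equal 5 of the 9 were lower, while 64.5% of all genes were higher. Nephron progenitor markers, which hold Itga8 too, were higher for 4 of 5 above the filter, beside 48.0% of all genes. The exception was Itga8, and Gdnf passed the filter through the mutant array alone. The part of these cells in the value of Itga8 was not tested.

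Laminin-binding alpha subunits were close to equal. Itga6, which pairs with Itgb1 or Itgb4, read 807 and 767 on its brighter probe set and 315 and 291 on the other. Its log2 differences were -0.07 and -0.11, and with array medians set equal the first was 0.00. Itga3, the main laminin receptor subunit of podocytes and collecting duct, read 102 and 110 on its brightest probe set, a log2 difference of 0.11, and 19.6 and 22.0 on the other above the filter. The podocyte markers counted above had log2 differences from -0.61 to -0.24. Ureteric and collecting duct markers were higher for 5 of 8 genes, beside 48.0% of all genes, with log2 differences from -0.38 to 0.66. Of these 8, 7 reached the filter in both arrays. The part of either cell type in the value of Itga3 was not tested. Itga7, a subunit of muscle, was dim at 20.4 and 22.0.

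Collagen-binding subunits were represented above the filter by Itga1. It was higher on both probe sets, at 208 and 245 and at 63.2 and 80.4, log2 differences of 0.24 and 0.35. Smooth muscle markers were higher in the mutant array for 5 of 5 genes on their brightest probe sets, beside 48.0% of all genes, summing to 2808 and 3551. Another probe set of Myh11 above the filter had a log2 difference of -0.36. The endothelial and the stromal and mesangial markers counted above were mostly lower as deposited. The part of these cells in the value of Itga1 was not tested. Itga2, its genomic neighbour, did not pass the filter, at 8.53 and 6.23, nor did Itga10, at 9.99 and 10.9. Itga11 and Itgad were not analysed here.

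Of the other receptors for the RGD motif and for fibronectin, Itga5, the classical fibronectin receptor subunit, read 53.1 and 58.6, a log2 difference of 0.14. Itga2b, the platelet subunit, read 59.1 and 50.4, a log2 difference of -0.23, while of the other platelet and megakaryocyte markers above the filter Pf4, a platelet granule gene, read 402 and 429. Gp1bb, a subunit of the platelet receptor for von Willebrand factor, read 21.2 and 10.4 and passed the filter through the wild-type array alone. Itga4, which binds Vcam1, read 57.5 and 57.0. Itga9, a receptor of tenascin and Vcam1, had 2 probe sets above the filter that disagreed, one at 115 and 125 and the other at 66.0 and 61.7, and a dim one at 6.14 and 5.2.

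Leukocyte subunits above the filter were lower. Itgae, which lets T cells hold on to epithelial cadherin, read 41.0 in the wild-type and 31.4 in the mutant sample, a log2 difference of -0.39, although its other probe set, below the filter, read 9.57 and 11.3. Itgal, a subunit of the lymphocyte receptor for Icam1, read 27.5 and 22.8, a log2 difference of -0.27, with 12.7 and 14.2 on its dim probe set. Lymphocyte markers above the filter were lower for 3 of 3 genes and neutrophil markers for 3 of 3, beside 6828 of all 13145 genes. Macrophage markers were higher for 6 of 8, beside 48.0% of all genes, summing to 739 and 907. With array medians set equal 3 lymphocyte and 2 neutrophil markers were lower and 8 macrophage markers higher, beside 64.5% of all genes higher. Cd3e and Cd3g, which define T cells, were in both arrays under 4.2, the floor set on dim values. Itgam and Itgax, the myeloid subunits, are neighbours in the genome and stayed below the filter, at 11.8 and 10.6 and at 10.4 and 13.6.

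Itgb1, the beta subunit shared by most receptors for laminin and collagen, differed least of the 3 beta subunits above the filter. Its probe sets above the filter read 338 and 328, 185 and 170, and 135 and 120. These 3 were lower as deposited, by log2 differences of -0.04 to -0.18, but with array medians set equal the brightest was 0.03. Its 3 dim probe sets read 4.99 and 9.40, 6.35 and 5.84, and 1 and 2.30, so that 2 of these were higher in the mutant array. The beta subunits Itgb2, Itgb3, Itgb4 and Itgb7 did not pass the filter, with values between 1 and 13.6 on the probe set that stands for each. Itgb4, the hemidesmosome subunit, read 4.30 and 13.6, a ratio of 3.16, and Itgb3, the partner of Itga2b, read 12.4 and 6.18, a ratio of 2.00 the other way. Values this dim lie near the floor, and over all genes without the filter 2.81% were at least 2-fold apart, beside 1.04% with it. Itgb8 was not analysed here.

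**Figure D3:**
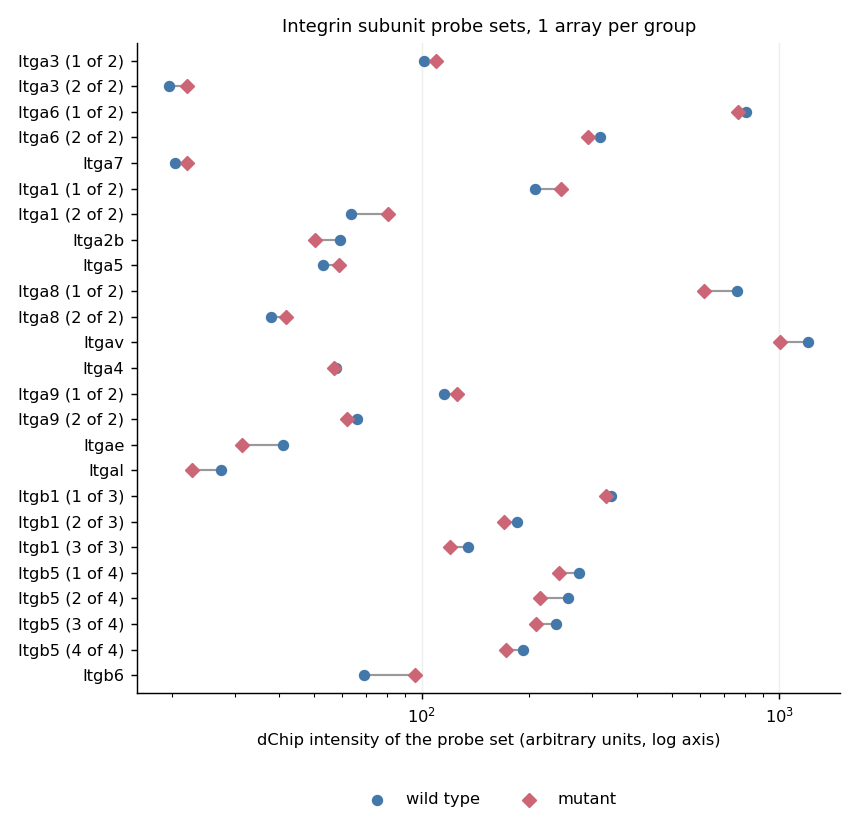
Intensity (log axis, arbitrary units) of the integrin probe sets above the filter in the wild-type array (circles) and the mutant array (diamonds), alpha subunits first and beta subunits below. The mutant value lies to the left on all 4 Itgb5 probe sets and to the right on both Itga1 probe sets and on Itgb6, and the paired probe sets of Itga8 and Itga9 disagree.

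Probe sets of a gene gave a measure of how far these values repeat within the same pair of samples. Of the 10 laminin and integrin genes that had more than 1 probe set over the filter, 7 had all of them in 1 direction (Lama5, Lamb1, Itga1, Itga3, Itga6, Itgb1 and Itgb5), beside 51.6% of all 5269 such genes. Over the 10 genes the median SD of a gene's log2 differences was 0.05, and over all such genes it was 0.13. All 10 were bright genes, which differ less, and no set of genes matched for brightness was compared. Itga8, Itga9 and Lamc1 were the 3 whose probe sets disagreed. This spread holds no variation between animals.

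The authors' deposited table closes with 354 genes that met its criteria, and that number is reached by probe sets with a fold of at least 1.5 and a difference of at least 20 intensity units, 0.786% of all probe sets. The header of that table names the lower bound of the fold in place of the fold, which with the same difference is met by 267 probe sets. No laminin or integrin probe set reached both the fold and the difference. Folds in the authors' deposited table were at least 1.5 for 14 member probe sets, but none of these read above 15.2 in either array. The intervals of the fold in the authors' deposited table left out 1 for 34 of the 42 member probe sets above the filter, beside 70.9% of all such probe sets. Those intervals come from the error of the probe model on 1 array per group and hold no variation between animals.

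Genes that carry an Itgb symbol by name were also taken by the rule. Itgb1bp1, which encodes a protein that binds the tail of the Itgb1 product, read 146 and 155. Itgb3bp, also known as a centromere protein gene, read 181 and 150 on its brightest probe set and 42.1 and 38.7 on another, log2 differences of -0.27 and -0.12. Nmrk2, deposited as Itgb1bp3, is a kinase of nicotinamide riboside and read 28.1 and 32.5. Itgb1bp2, Itgb2l and Itgbl1 did not pass the filter, with values from 1.81 to 12.4.

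Partners of these proteins were compared as lists. Basement membrane partners of laminin divided into 12 higher and 8 lower of 20, with a median log2 difference of 0.02, and 18 were higher with array medians set equal, beside 64.5% of all genes. None reached 1.5-fold. Tinagl1, a matricellular gene related to Tinag, had the largest higher value, at 253 and 333, and Ntn4, which binds laminin gamma chains, read 224 and 275. Tinag, a further tubular basement membrane gene, read 475 and 583, and the dim Smoc1 was lower, at 23.5 and 17.1. The linkers Nid1, Nid2 and Hspg2 and the collagen chain Col4a1 were each within 1.05-fold on their brightest probe sets. On the log2 scale the 3 probe sets of Nid1 ran down to -1.24, and another of Hspg2 stood at 0.27. Of the other collagen IV chains Col4a2, Col4a3, Col4a4 and Col4a5 were higher on their brightest probe sets, by 0.02 to 0.17, and the dim Col4a6 was lower, by -0.21.

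Laminin receptors other than integrins were mixed, with 5 of 9 higher and a median of 0.00. With array medians set equal 6 were higher, beside the same 64.5% of all genes. Bcam, a receptor for the Lama5 chain, differed most, at 102 and 144, which is 1.41-fold higher, on an _a_at probe set that may read several transcripts of the gene. Dag1, which encodes dystroglycan, read 1338 and 1461. Sgce, a sarcoglycan, read 116 and 146, and Sdc1, a syndecan of epithelia, read 249 and 305 on the brightest of 3 probe sets that ranged from -0.13 to 0.56 in log2 difference, and Sdc4 read 791 and 683.

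Among integrin ligands other than laminins and collagen IV, 12 of 17 above the filter were higher, beside 48.0% of all genes, with a median of 0.09. With array medians set equal 13 were higher, beside 64.5% of all genes. As deposited, 3 were at least 1.5-fold higher, beside 2.01% of all genes. These were Ccn1 (2.05-fold), Frem2 and Thbs1 (1.5-fold). The lower ones were led by Vcam1, a ligand of the Itga4 and Itga9 receptors, at 222 and 156, and Egfl6, a ligand of the Itga8 receptor in hair follicles, at 187 and 140. Fn1, which encodes fibronectin, read 1242 and 1250 on its brighter probe set, with a log2 difference of -0.57 on the other, and Spp1, which encodes osteopontin, 2439 and 2607.

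In the integrin adhesion complex, the proteins that couple integrin tails to actin, 17 of 28 genes were higher, with a median of 0.10, and 23 with array medians set equal, beside the same 64.5% of all genes. None reached 1.5-fold. The core genes Ilk, Parva and Lims1 read 315 and 352, 381 and 373, and 307 and 300. Of the talin and kindlin genes, whose products switch integrins on, Tln1 read 299 and 295 and Tln2 read 146 and 165, with a log2 difference of 0.69 on another probe set of Tln2. Fermt2 read 951 and 927 on the brightest of 3 probe sets that ran from -0.39 to 0.08, and Fermt3 read 32.4 and 36.5. Zyx, which gathers on adhesions under tension, had the largest difference, at 149 and 184, although its 2 probe sets ran from 0.06 to 0.30 on the log2 scale. Lims2 read 44.7 and 53.8, Tns2 44.0 and 52.0, and Sharpin, an inhibitor of integrin activation, 89.9 and 76.3 on the brighter of 2 probe sets that disagreed in sign.

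**Figure D4:**
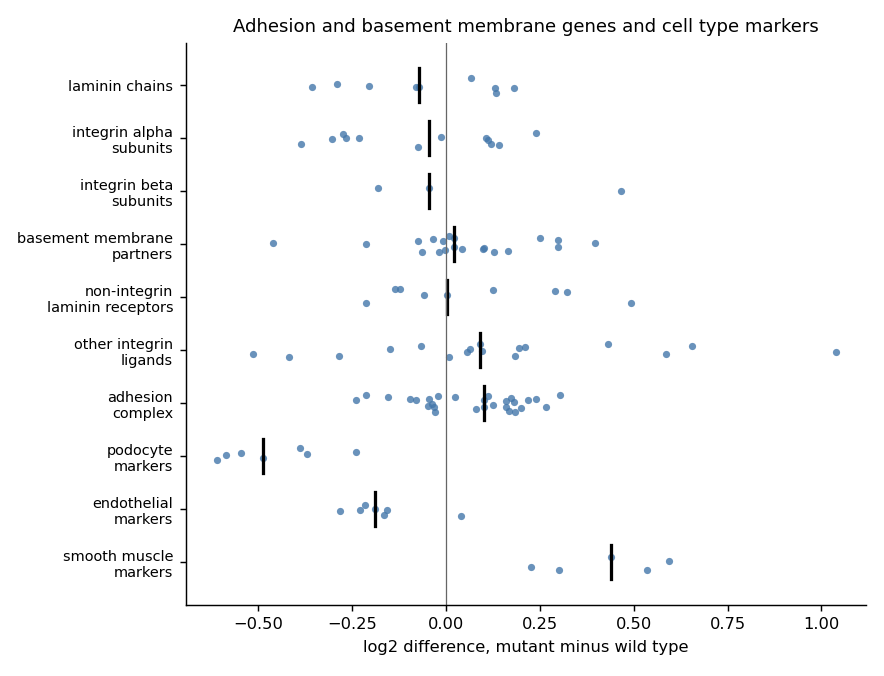
Log2 difference (mutant minus wild type) of each gene above the filter, 1 point per gene and 1 array per group, for the laminin and integrin families, 4 lists of partner genes and 3 lists of cell type markers. Black bars are medians, which are -0.48 for podocyte markers, 0.44 for smooth muscle markers and between -0.07 and 0.10 for the families and partner lists.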

How the data were processed

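Kidney RNA, 1 sample each of wild type and mutant, was labelled from 100 ng and read on 1 array each, per the labels. The deposited values are intensity, which the authors computed as the dChip expression index (version of December 2010, per the series' design text). Per the file headers, control probe sets were omitted. The handling of background and of scaling between arrays is not given in the sources used here. The authors' deposited fold was used as a score and matched the intensity ratio within 1% in 45027 of 45037 probe sets. Precision is limited by there being 1 array a group.

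Of the probe sets 37577 named 1 gene, 1467 several and 5991 none. Symbols were updated through RefSeq (GRCm38.p6) Entrez IDs, which renamed 2 members. A floor of 4.2, the 20th percentile over both arrays, was applied before log2. Differences are mutant minus wild type, with no test, computed in Python 3.11.15 with numpy 2.4.6 and pandas 2.3.3. A gene that the rule also takes is not reported here and was left out of all gene counts, and every other member was described. From each partner list up to 4 genes of largest difference and any at least 1.5-fold apart were named. Others (Nid1, Nid2, Hspg2, Col4a1, Col4a2, Col4a3, Col4a4, Col4a5, Col4a6, Dag1, Fn1, Spp1, Npnt, Egfl6, Pf4, Gp1bb, Gdnf, Cyp11a1, Cd3e, Cd3g, Myh11, Frem1, Fras1, Ilk, Parva, Lims1, Tln1, Tln2, Fermt2 and Fermt3) were chosen after their values were seen. Members and lists were chosen with earlier results of these data known. Alternatives were median, quantile and loess scaling (span 0.4), a pseudocount of 32 or nothing in place of the floor, a filter at 83.51 or none, the mean of a gene's probe sets, leaving out _x_at, _s_at and _a_at probe sets, the series matrix and a distance of 1.2-fold.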

Additional observations from a re-analysis of the deposited data

How the results depend on the processing

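Counts were compared within 1.5 times and log2 differences within 0.133, the median SD between probe sets of a gene, since there was 1 array per group. Of 256 values of single members under alternatives, 249 stayed within that margin. The exceptions were dim genes with a pseudocount of 32 (Lamc3 -0.11, Itgae -0.20, Itgal -0.12), Lamc1 (0.00) and Itga8 (-0.08) as the mean of their probe sets, and Itga9 (-0.10) and Itgb3bp (-0.12) without _x_at, _s_at and _a_at probe sets. Of these Itga9 changed sign. With array medians set equal, Lama4, Itga4 and Itgb1 changed sign within the margin, as did Itga4 with loess scaling. Many of the 249 values could not leave the margin. The series matrix held the same intensities, and neither removing the floor nor moving the filter alters the log2 difference of a kept member. Setting the array medians equal shifted each by 0.073, and the margin is wider than many of the differences themselves.

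With array medians set equal, 2 integrin beta subunits were higher and 1 lower. Without the filter 3 beta subunits were higher, 2 stood at least 1.5-fold and 2 at least 2-fold apart, namely the dim Itgb3 and Itgb4. With the filter at the 75th percentile 3 laminin chains were lower, and 3 integrin alpha subunits were higher and 3 lower, fewer genes being kept. Without _x_at, _s_at and _a_at probe sets 3 alpha subunits were higher. Lama3, Itga7, Itgae and Itgb1bp1 then had no probe set above the filter. At a distance of 1.2-fold, 2 laminin chains, 4 alpha subunits and 1 beta subunit stood apart. Over all genes the share at least 1.5-fold apart was 0.791% with the pseudocount, 10.7% without the filter, 1.66% with the higher filter and 21.1% at 1.2-fold. The share at least 2-fold apart was 0.145%, 2.81% and 0.385% under the first 3 of these. The cause was not tested, beyond the genes and values that each setting removes. Dim signal limits what can be said of the 9 laminin and integrin genes under the filter. No paired analysis was possible because there was 1 array per group.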
